A study of Mus musculus with 17 samples.

Results

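Inflammasome and pyroptosis genes were examined in mouse lung after 14 weeks of PFOA (perfluorooctanoic acid) in drinking water. The 10 genes were taken by name, as the core of the pathway, with earlier results of these data known. They were the sensors Nlrp3, Aim2 and Nlrc4, the adaptor Pycard (ASC) and the caspases Casp1 and Casp4. The others were the pore-forming Gsdmd, the cytokines Il1b and Il18, and the necroptosis kinase Ripk3. The paper had listed Nlrp3, Aim2 and Ripk3 among its top genes. Counts of the 10 genes beside the share of all genes therefore describe and do not test. All 10 were among the 31245 genes of the count table, and all 10 passed the minimum of 20 counts over the libraries that left 26946 genes for testing.

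RNA sequencing of total lung RNA was performed on 17 mice, 1 library each, in 6 groups. Wild type (WT) Sv/129 mice came from a vendor, while PPARα knock-out (KO) mice and mice with human in place of mouse PPARα (KI) were bred from heterozygous human PPARα and PPARα null pairs, so that the source of the mice cannot be told apart from the genotype. From 6 weeks of age mice of all groups ate a custom diet modelled on an American adult diet and drank water with 0.5% sucrose, which was the vehicle, or the same water with 6.2 µg/mL PFOA. There were 2 libraries of WT on vehicle, 3 of WT on PFOA, and 3 in each of the 4 KO and KI groups. All 6 KO mice were female, and the other groups held both sexes (12 females and 5 males in all). Libraries are named here by group and animal number, and an animal stands for 1 sample of its group.

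An inflammasome is a protein platform that forms in the cytosol when a sensor meets microbial or damage signals. The sensor gathers the adaptor ASC, which gathers and activates caspase-1. Caspase-1 cuts pro-IL-1β and pro-IL-18 to their active forms and cuts gasdermin D, whose freed part opens pores in the membrane through which the cytokines leave and by which the cell can die (pyroptosis). Most of this control acts on protein, so mRNA levels speak to priming, the induction of Nlrp3 and Il1b through NF-κB, and not to whether the platform formed. In lung these genes are used mainly by macrophages, monocytes and neutrophils, and some of them by epithelial cells.

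In bulk lung RNA, fewer or more cells of a type and less or more RNA per cell cannot be told apart. Library totals ran from 4116116 to 9237385 counts (median 7524817). In WT vehicle library 122 and KO vehicle library 137, 65.3% and 61.3% of counts fell on protein-coding genes, against 74.4% to 80.4% in the other 15 libraries. Some of the results that rest on either are given with and without it. The lung was recognizable by Sftpc, the alveolar type 2 surfactant gene, at 677 to 3501 CPM (counts scaled to the library total with TMM factors), and by Scgb1a1, the club cell secretoglobin gene, at 4079 to 21350 CPM. Sftpc was lowest in those 2 libraries, at 932 CPM in library 122 and 677 CPM in library 137. Ppara itself averaged 6.67 ± 0.763 CPM (SD, n = 2) in WT on vehicle, 10.4 ± 1.29 (SD, n = 3) in the libraries labelled KO on vehicle and 14.4 ± 1.51 (SD, n = 3) in KI on vehicle. The count of the targeted gene was thus not lower under the KO label. Over both exposures it was higher than in WT, by 0.78 on the log2 scale in KO (SE 0.19) and by 1.295 in KI (SE 0.19). The count sums over all exons, so it does not test a disruption of part of the gene. KO here means the libraries labelled KO.

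The sequence around a start site is shown for the 4 genes whose vehicle and PFOA libraries differed without overlap in 1 genotype. Only genes with a window at hand are shown, and the NF-κB consensus was searched because priming runs through NF-κB. Sites farther from the start than these short windows reach were not searched. A window with or without a match therefore does not speak to priming. Sequences are RefSeq windows on GRCm38.p6 from 250 bases before to 50 after an annotated start, on the gene's own strand, 5′ to 3′. Capitals mark matches, on either strand, to the NF-κB consensus or to the TATA box motif TATAAA. Windows were found for 9 of the 10 genes, 11 windows in all (not for Gsdmd).

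Il1b, chr2:129371090-129371389, minus strand: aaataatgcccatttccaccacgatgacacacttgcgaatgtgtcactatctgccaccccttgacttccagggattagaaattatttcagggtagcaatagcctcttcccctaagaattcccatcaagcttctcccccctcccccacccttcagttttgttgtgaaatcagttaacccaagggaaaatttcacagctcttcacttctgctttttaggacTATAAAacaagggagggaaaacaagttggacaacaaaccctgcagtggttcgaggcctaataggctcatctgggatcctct
Nlrp3, chr11:59541319-59541618, plus strand: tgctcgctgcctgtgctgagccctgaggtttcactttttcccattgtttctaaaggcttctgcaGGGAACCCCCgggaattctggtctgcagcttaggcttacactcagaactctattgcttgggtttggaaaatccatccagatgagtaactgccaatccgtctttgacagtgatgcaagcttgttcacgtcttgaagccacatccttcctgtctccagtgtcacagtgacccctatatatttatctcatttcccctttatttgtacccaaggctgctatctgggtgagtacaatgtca
Casp4, chr9:5308599-5308898, plus strand: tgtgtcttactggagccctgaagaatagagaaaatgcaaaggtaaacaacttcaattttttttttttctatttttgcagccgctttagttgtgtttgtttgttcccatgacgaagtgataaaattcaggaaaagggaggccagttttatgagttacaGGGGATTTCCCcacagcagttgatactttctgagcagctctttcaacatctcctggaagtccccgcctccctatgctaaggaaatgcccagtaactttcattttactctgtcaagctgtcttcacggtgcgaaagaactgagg
Ripk3, chr14:55788808-55789107, minus strand: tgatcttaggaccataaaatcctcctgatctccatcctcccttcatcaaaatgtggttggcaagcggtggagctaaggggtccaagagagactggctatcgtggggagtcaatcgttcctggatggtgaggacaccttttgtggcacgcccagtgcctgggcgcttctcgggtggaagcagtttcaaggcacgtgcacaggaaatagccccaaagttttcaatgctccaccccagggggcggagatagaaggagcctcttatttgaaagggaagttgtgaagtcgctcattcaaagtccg

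The Il1b window held TATAAA on the gene's strand at positions -31 to -26 from the start, and no NF-κB consensus. The Nlrp3 window held an NF-κB consensus on the opposite strand at -186 to -177, and a further Nlrp3 window held none. The Casp4 window held overlapping NF-κB consensus matches from -93 to -83, which a second Casp4 window shared because the windows overlap. Of all 32851 windows, 4.51% held the NF-κB consensus and 13.6% held TATAAA. The Ripk3 window held neither of these, nor the core of the interferon-stimulated response element (3.44% of all windows, and none of the 11), the PU.1 core GAGGAA (28.3% of all windows, and 4 of the 11: in Aim2, Pycard, Casp1 and Nlrp3) or the nuclear receptor unit AGGTCA (16.3% of all windows, and none of the 11). A match is a description of the letters, and no binding was measured.

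Among the sensors, Nlrp3 (ENSMUSG00000032691, chr11:59541568-59566956), which responds to membrane damage and ion flux, had 716 counts over the 17 libraries. Aim2 (ENSMUSG00000037860, chr1:173350879-173466040), which binds cytosolic DNA, had 639, and Nlrc4 (ENSMUSG00000039193, chr17:74425438-74459142), which answers bacterial flagellin through NAIP proteins, had 373. The adaptor Pycard (ENSMUSG00000030793, chr7:127989708-127993867) had 1380 counts. It shares 485 exon bases with the opposite-strand gene Gm45205, and its deposited estimates were not whole in 17 of 17 libraries, so its values are uncertain. How reads were divided between them was not tested, and Gm45205 averaged 7.71 counts.

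Casp1 (ENSMUSG00000025888, chr9:5298517-5307265), the caspase that inflammasomes activate, had 407 counts. Casp4 (ENSMUSG00000033538, chr9:5308828-5336783), also called caspase-11, senses lipopolysaccharide directly and lies 1562 bases from Casp1. Casp4 had 806 counts, and as background, 129 strains are known for a defective Casp4 allele, which gene counts do not separate from an intact one. Gsdmd (ENSMUSG00000022575, chr15:75862327-75867408) was the most counted at 4259.

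Il1b (ENSMUSG00000027398, chr2:129364570-129371139) had 744 counts and shares 25 exon bases with the opposite-strand Il1bos. Il18 (ENSMUSG00000039217, chr9:50554827-50581840), a cytokine that many epithelial cells hold ready, had 465. Ripk3 (ENSMUSG00000022221, chr14:55784995-55788865), the kinase that activates MLKL in necroptosis and can also feed the NLRP3 inflammasome, had 507. Coordinates are those of GENCODE M21 on GRCm38 (mm10), the build of the alignment.

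Counts were low for most of these genes, from 6 to 361 in a single library. At the median count, counting error alone was 6.26% for Gsdmd, 11.1% for Pycard and 15.3% to 21.3% for the other 8. The standard error of the log2 fold change on PFOA within a genotype ran from 0.15 for Gsdmd in KI to 0.60 for Il1b in WT.

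Per kilobase of exon, Gsdmd was the highest at 14.4 ± 1.70 CPM per kb (SD over 17 libraries), at the 89.2 percentile of all genes tested, and was above the next gene in 17 of 17 libraries. Il18 (3.54 ± 1.13), Il1b (3.17 ± 1.85) and Pycard (2.94 ± 0.504) followed in CPM per kb, and their order is not settled, since Il18 was above Il1b in 8 of 17 libraries and Il1b above Pycard in 7 of 17. Casp1 averaged 2.16 ± 0.820 CPM per kb, and Pycard was above it in 14 of 17 libraries. Ripk3 (1.76 ± 0.530), Casp4 (1.76 ± 0.499), Aim2 (1.48 ± 0.538) and Nlrp3 (1.43 ± 0.584) were close neighbours in CPM per kb, each above the next in 8 or 9 of 17 libraries. Nlrc4 was the lowest at 0.629 ± 0.188 CPM per kb, below Nlrp3 in 17 of 17 libraries. The length used joins all annotated exons of a gene, 3800 bases in 3 blocks for Pycard and 3710 bases for Casp4. A gene whose main transcript is shorter than that is understated per kb, so the order holds for these lengths only.

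Over all libraries Il1b varied most, from 1.73 to 13.1 CPM, a 7.57-fold range. Gsdmd varied least, from 24.7 to 40.4 CPM, a 1.64-fold range, and Pycard ranged 1.92-fold. Both extremes of Il1b fell in the same group, WT on vehicle.

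**Figure D1:**
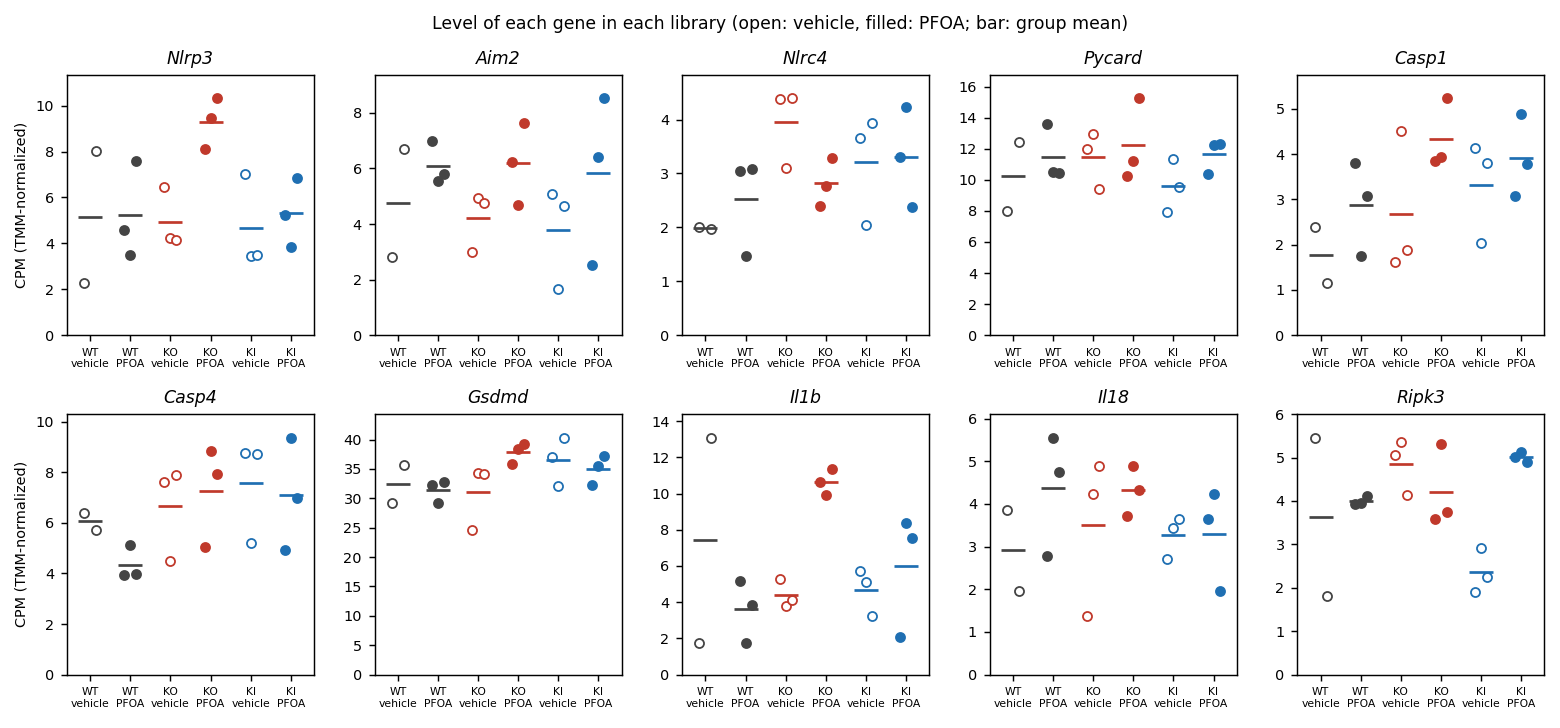
Level of the 10 genes in CPM (vertical axis, from 0, its own scale for each gene) in each of the 17 libraries, by group (horizontal axis). Each point is 1 library, open on vehicle and filled on PFOA, and the bar is the group mean. In KO, all 3 PFOA libraries of Nlrp3 and Il1b lie above all 3 vehicle libraries, in KI the same holds for Ripk3, and the 2 WT vehicle libraries stand far apart for Il1b.

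The main question was whether PFOA in drinking water shifted the expression of these genes, and whether that depended on PPARα, a nuclear receptor that PFOA activates in rodent liver. The study tested with DESeq2, and only its cuts on adjusted p and fold were taken over here. They were applied to edgeR's quasi-likelihood test, as a Benjamini-Hochberg adjusted p below 0.2 together with more than a 2-fold change. By this call, 0 of the 10 genes were called on PFOA in any genotype or over them, where 0 of all genes tested were called (0% of 26946 in each). At an unadjusted p under 0.05, edgeR gave 0 of the 10 genes in WT (7.35% of all genes tested), 2 of 10 in KO (9.79%), 1 of 10 in KI (2.59%) and 0 of 10 over the genotypes (8.27%). DESeq2 also called 0 of the 10 in each of these, and over all genes it called 24 in WT, 68 in KO, 1 in KI and 26 over the genotypes.

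**Figure D2:**
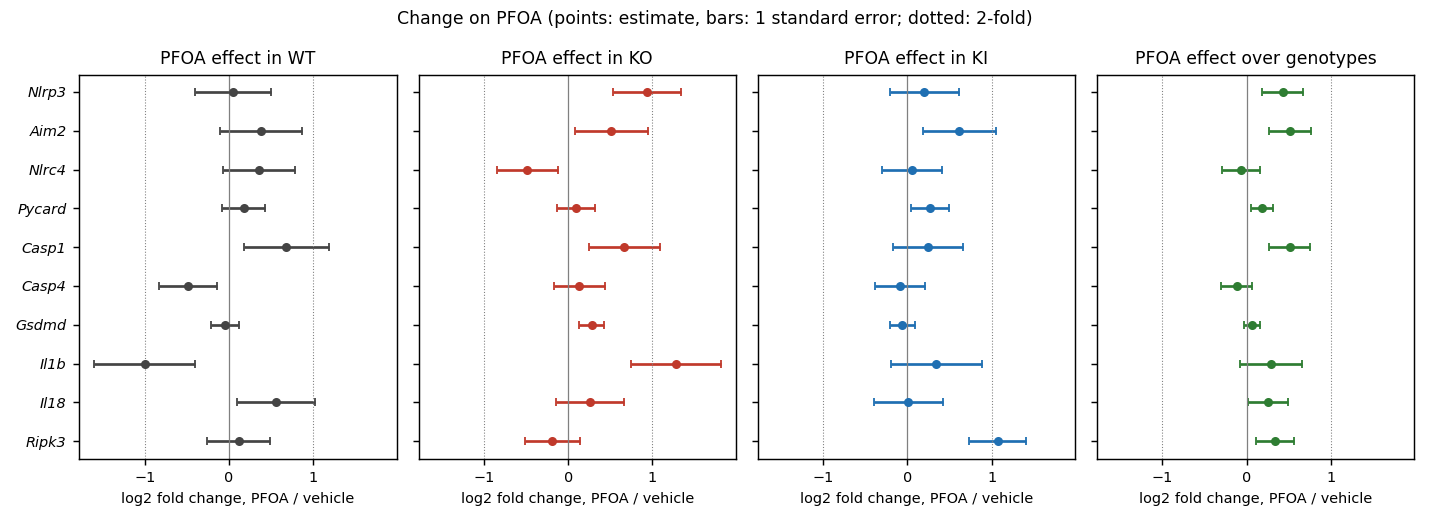
Log2 fold change of the 10 genes on PFOA against vehicle (horizontal axis) by genotype, with the additive model over the genotypes at the right. Points are edgeR estimates, bars 1 standard error, and dotted lines a 2-fold change. Il1b (1.28) and Nlrp3 (0.94) in KO and Ripk3 (1.07) in KI lie farthest above 0, and Il1b in WT (-1.0) farthest below.

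In KO, the priming pair Nlrp3 and Il1b had the 2 largest estimates among the 10 genes. Nlrp3 measured 6.45, 4.22 and 4.14 CPM in the KO vehicle libraries 137, 145 and 149, and 8.11, 9.48 and 10.3 CPM in the KO PFOA libraries 52, 154 and 155. The groups did not overlap, and the 3 KO PFOA libraries were the highest of all 17, with WT vehicle library 122 close behind at 8.03 CPM. The group means were 4.94 ± 1.31 and 9.30 ± 1.12 CPM (SD, n = 3 each), which gave 0.94 on the log2 scale (SE 0.40) with an unadjusted p of 0.0307 and an adjusted p of 0.490 in edgeR.

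Il1b measured 5.30, 3.80 and 4.14 CPM in KO vehicle libraries 137, 145 and 149, and 10.6, 9.90 and 11.4 CPM in KO PFOA libraries 52, 154 and 155. Again the groups did not overlap, and the gap between them was larger than the range within either. The means of 4.41 ± 0.785 and 10.6 ± 0.731 CPM (SD, n = 3 each) gave a log2 fold change of 1.28 (SE 0.54), with an unadjusted p of 0.0287 and an adjusted p of 0.488 in edgeR.

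Gsdmd was the third gene without overlap in KO. It measured 24.7, 34.3 and 34.2 CPM on vehicle and 35.9, 38.4 and 39.3 CPM on PFOA, in the same library order. The lowest value came from library 137, and the log2 fold change of 0.28 (SE 0.15, edgeR adjusted p = 0.541) was 0.15 without that library. For each of these 3 genes the exact permutation p was 0.1, the smallest that 3 libraries against 3 allow.

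Thus 3 of the 10 genes were higher without overlap in KO and 0 lower, where 6.82% of all genes tested were higher and 5.99% lower without overlap. The other 7 genes overlapped, with log2 fold changes from -0.49 (Nlrc4) to 0.67 (Casp1). Over the 10 genes the median log2 fold change was 0.27, against -0.033 over all genes tested. Of them 8 of 10 were above 0 (46.9% of all genes). The 10 genes were chosen with earlier results of these data known, so these shares do not test the set.

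Marker genes of leukocytes moved with these genes in KO. Of the 8 neutrophil markers listed, 7 were measured (Ly6g was not analysed here). Their summed level was 20.97 to 29.0 CPM in the KO vehicle libraries and 61.8 to 79.7 CPM in the KO PFOA libraries. All 7 were higher without overlap, with a median log2 fold change of 1.55, and none was at 0 in any library. The summed markers of alveolar macrophages (67.0 to 173 against 247 to 292 CPM), monocytes (75.6 to 149 against 176 to 226 CPM), NK and T cells (28.3 to 35.0 against 49.4 to 74.3 CPM) and B cells (15.7 to 29.5 against 32.7 to 75.2 CPM) were also higher without overlap, while the other 7 of 12 cell type lists overlapped. Library 137 was the lowest of the KO vehicle libraries for the alveolar macrophage, monocyte and B cell sums, but not for the neutrophil or NK and T cell sums. The part of all these leukocytes in the Nlrp3 and Il1b values was not tested.

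**Figure D3:**
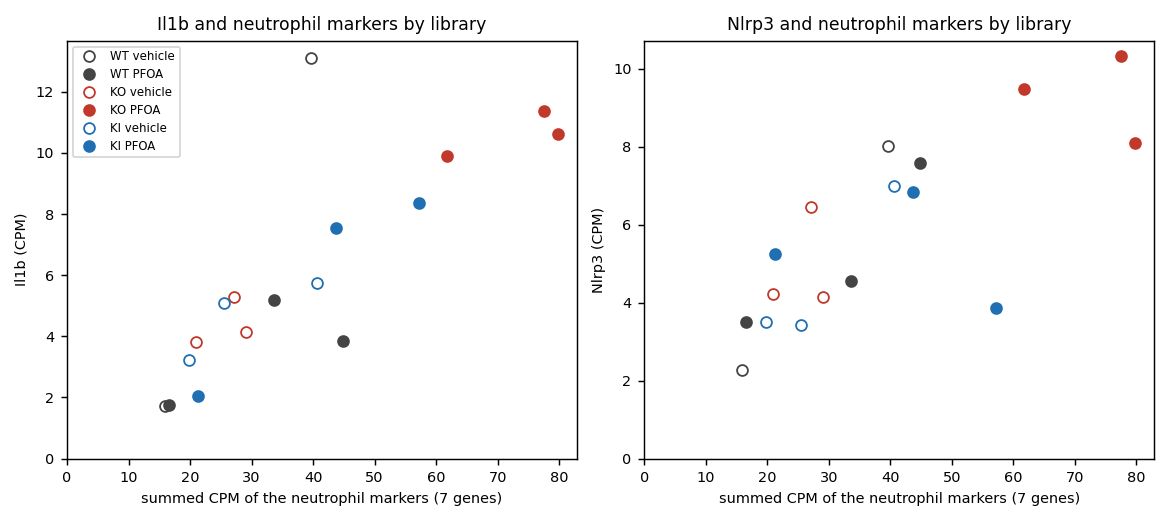
Il1b (left) and Nlrp3 (right) in CPM against the summed CPM of the 7 neutrophil markers in each of the 17 libraries, coloured by genotype, open on vehicle and filled on PFOA. The 3 KO PFOA libraries lie at the upper right of both panels (61.8 to 79.7 CPM of markers), and WT vehicle library 122 has the highest Il1b (13.1 CPM) at 39.6 CPM of markers.

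The column names carry a second code, which was the same in all KO PFOA libraries and in no KO vehicle library, so within KO it cannot be told apart from exposure. With the code as a term over all groups, the log2 fold change in KO was 0.63 for Nlrp3 and 1.63 for Il1b. No library group of 1 code held both KO exposures, so a value within codes could not be given.

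In KI, Ripk3 stood out. It measured 1.91, 2.93 and 2.25 CPM in KI vehicle libraries 102, 116 and 135, and 5.02, 5.14 and 4.89 CPM in KI PFOA libraries 57, 80 and 139. The groups did not overlap. The exposed libraries lay closer together, with an SD of 2.5% of the mean, than the counting error of 15.9% would give. Their small SD is therefore not a measure of how the mice vary. The means were 2.36 ± 0.518 and 5.02 ± 0.124 CPM (SD, n = 3 each), which gave 1.07 on the log2 scale (SE 0.34). The unadjusted p of 0.0051 was the 48th smallest of all genes tested, the edgeR adjusted p was 1.0, and the exact permutation p was 0.1, the smallest possible.

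The KI PFOA level of Ripk3 was near that of the other groups, which averaged 4.85 ± 0.630 CPM in KO on vehicle, 4.22 ± 0.962 in KO on PFOA and 3.996 ± 0.101 in WT on PFOA (SD, n = 3 each). The KI vehicle group was the lowest of the 6. WT vehicle libraries 107 and 122 read 5.46 and 1.80 CPM, so WT vehicle library 122 was below all 3 KI vehicle libraries.

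Ripk3 was 1 of 10 genes higher without overlap in KI, and 0 were lower, where 4.45% and 3.78% of all genes were. In KI 8 of 10 were above 0 (50.8% of all genes). The other 9 overlapped, with log2 fold changes from -0.091 (Casp4) to 0.62 (Aim2). The summed levels of the 12 cell type marker lists overlapped between vehicle and PFOA in 12 of 12 lists in KI. Il1b in KI was 2.06 CPM in PFOA library 57, the only male of that group, and 8.35 and 7.55 CPM in the female libraries 80 and 139, against 3.23 to 5.73 CPM on vehicle, where male library 102 was the highest. The neutrophil markers summed to 21.2, 57.2 and 43.7 CPM in libraries 57, 80 and 139, in the same order as Il1b. The part of sex and of these cells was not tested.

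In WT, the 2 vehicle libraries differed widely for several of the genes. Il1b measured 1.73 CPM (13 counts) in female vehicle library 107 and 13.1 CPM (80 counts) in male vehicle library 122. On PFOA it read 5.20, 1.75 and 3.86 CPM in libraries 50, 56 and 65, all within the vehicle range. The log2 fold change of -1.0 (SE 0.60, edgeR adjusted p = 0.740) was 1.06 without library 122 and -1.85 without library 107.

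Of the 10 genes 7 were above 0 on PFOA in WT (53.3% of all genes). Nlrp3 (2.26 and 8.03 CPM) and Aim2 (2.80 and 6.72 CPM) were likewise low in 107 and high in 122, and Ripk3 (5.46 and 1.80 CPM), Casp1 (2.40 and 1.15 CPM) and Il18 (3.86 and 1.97 CPM) were high in 107 and low in 122. The neutrophil markers summed to 15.9 CPM in library 107 and 39.6 CPM in library 122. On PFOA they summed to 33.6, 16.5 and 44.85 CPM in libraries 50, 56 and 65, which was not the order of Il1b. The part of neutrophils in these values was not tested. Against each vehicle library alone, 6 of the 10 genes took opposite signs (43.0% of all genes tested did). Without library 107, the WT vehicle group is library 122 alone, the one with the low protein-coding share, and its spread is assumed to be that of the other groups, as holds for library 107 wherever library 122 is left out. In that fit Il1b and Ripk3 were called in WT (log2 fold changes -1.85 and 1.14, edgeR adjusted p = 0.0904 and 0.188) along with 6.16% of all genes.

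**Figure D4:**
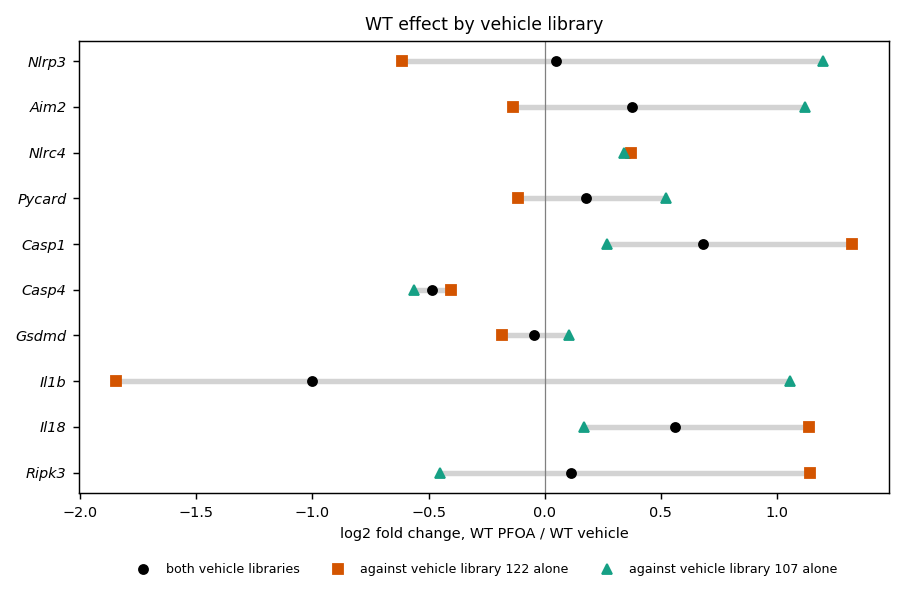
Log2 fold change of the 10 genes on PFOA in WT (horizontal axis) with both vehicle libraries (circles), with library 122 as the only vehicle library (squares) and with library 107 as the only one (triangles). Nlrp3, Aim2, Pycard, Gsdmd, Il1b and Ripk3 cross 0 between the squares and the triangles, and Nlrc4 and Casp4 move least.

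Casp4 was the gene in WT whose groups did not overlap. It measured 6.39 and 5.73 CPM on vehicle and 3.93, 5.12 and 3.98 CPM on PFOA in libraries 50, 56 and 65. All 3 PFOA libraries were lower, with a log2 fold change of -0.49 (SE 0.35, edgeR adjusted p = 0.782). The exact permutation p was 0.2, the smallest that 3 libraries against 2 allow. Lower without overlap were thus 1 of the 10 genes and 10.9% of all genes tested, and higher were 0 of the 10 and 11.6% of all genes. In WT the summed markers of monocytes, dendritic cells, NK and T cells, B cells and endothelial cells were higher on PFOA without overlap and those of club cells lower, so 6 of the 12 lists moved and 6 overlapped. The club cell markers summed to 11430 CPM in library 107 and 24860 CPM in library 122, against 6753 to 8678 CPM on PFOA. The NK and T cell markers, for example, summed to 11.6 and 17.98 CPM on vehicle and 32.6 to 38.8 CPM on PFOA. Their part in the Casp4 values was not tested. Casp4 in KO (0.13, SE 0.30) and in KI (-0.091, SE 0.30) had overlapping libraries.

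Over the 3 genotypes, in an additive model, the 10 genes had a median log2 fold change of 0.27 on PFOA, against -0.012 over all genes tested. Of them 8 of 10 were above 0 (48.2% of all genes). In this model the leukocyte markers had medians of 1.02 (neutrophil), 0.76 (NK and T cell), 0.58 (monocyte) and 0.43 (alveolar macrophage). Those of B cells (0.23) and dendritic cells (0.21) were smaller. The part of these cells in the values of the 10 genes was not tested. Casp1 (0.51, SE 0.25) and Aim2 (0.51, SE 0.25) had the smallest edgeR p-values, 0.0528 and 0.0534 (adjusted p = 0.611 and 0.613), followed by Nlrp3 (0.43, SE 0.25, adjusted p = 0.670). Nlrc4 (-0.067) and Casp4 (-0.12) were below 0. Without libraries 122 and 137, Casp1 was at 0.32 and Il18 at 0.014, while Aim2 was at 0.61 and Nlrp3 at 0.73. Within the genotypes, which share no libraries, Nlrp3, Aim2, Pycard, Casp1 and Il18 were above 0 in all 3, so 5 of 10 genes, where 15.4% of all genes were, although Il18 in KI was at 0.01. Without WT vehicle library 107 the WT values of Nlrp3 (-0.61), Aim2 (-0.14) and Pycard (-0.11) were below 0, which left Casp1 and Il18, 2 of 10, where 16.5% of all genes were.

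Aim2 in KO measured 2.99, 4.93 and 4.77 CPM on vehicle and 6.25, 4.69 and 7.63 CPM on PFOA, and in KI 5.09, 1.66 and 4.64 against 2.51, 6.42 and 8.53 CPM. The groups overlapped in both genotypes, with the widest spread in KI on PFOA (5.82 ± 3.05 CPM, SD, n = 3). Casp1 averaged 1.77 ± 0.885 and 2.88 ± 1.04 CPM in WT, 2.67 ± 1.60 and 4.34 ± 0.773 in KO, and 3.32 ± 1.13 and 3.91 ± 0.908 in KI, vehicle before PFOA (SD, n = 3, or 2 in WT on vehicle). Its mean was higher on PFOA in each genotype, and the libraries overlapped in each.

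Whether the effect of PFOA differed between genotypes was tested as a difference of log2 fold changes, and 0 of the 10 genes were called in either (0% of all genes). The KO and KI differences share the WT libraries. All KO mice were female and WT held both sexes, so sex is partly confounded with the KO difference. The Il1b effect was larger in KO than in WT by 2.28 (SE 0.81, unadjusted p 0.0111, edgeR adjusted p = 0.669), but by 0.20 without WT vehicle library 122 and by 3.13 without library 107, the latter called at an adjusted p of 0.147 in a fit that called 0.661% of all genes. That difference therefore rested on library 122. For Nlrp3 the KO effect was above the WT effect by 0.89 (SE 0.61, adjusted p = 0.745) and the difference was -0.28 without library 122. For Gsdmd the difference was 0.32 (SE 0.22, adjusted p = 0.749), but 0.16 without library 122, 0.46 without library 107 and 0.020 without libraries 122 and 137. The Ripk3 effect in KI was above that in WT by 0.96 (SE 0.50, adjusted p = 0.999), a difference of -0.069 without library 107. Only 1 of the 10 genes, Il1b in KO, had an unadjusted p under 0.05 in these 2 tests (7.46% of all genes for KO, 2.56% in that direction, and 4.58% for KI).

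The genotypes were also compared over both exposures. All KO mice were female and WT held both sexes, so sex is partly confounded with KO against WT. In KO against WT, 0 of the 10 genes were called (2.36% of all genes), and 9 of 10 were above 0 (53% of all genes), with a median log2 fold change of 0.36 against 0.024 over all genes. None of the 10 had an unadjusted p under 0.05 in edgeR (12.9% of all genes). The largest were Casp1 (0.57, SE 0.31), Il1b (0.53, SE 0.46), Nlrc4 (0.51, SE 0.28) and Casp4 (0.47, SE 0.23), with edgeR adjusted p-values of 0.475, 0.707, 0.474 and 0.395. Without WT vehicle library 122, Il1b alone of the 10 was called, at a log2 fold change of 1.41 (adjusted p = 0.0546), in a fit that called 1.7% of all genes. In KI against WT, 0 of 10 were called (1.37% of all genes), and 5 of 10 were above 0 (51% of all genes). Casp1 (0.62, SE 0.31, adjusted p = 0.553), Casp4 (0.53, SE 0.23, adjusted p = 0.433) and Nlrc4 (0.47, SE 0.28, adjusted p = 0.667) had the largest values, and Casp4 was the 1 of the 10 with an unadjusted p under 0.05, at 0.0301 (9.65% of all genes).

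This was 1 of 10 genes, near the share of all genes. By group, Casp4 averaged 6.06 ± 0.468 and 4.34 ± 0.671 CPM in WT, 6.67 ± 1.88 and 7.27 ± 1.98 in KO, and 7.56 ± 2.03 and 7.09 ± 2.24 in KI, vehicle before PFOA (SD, n = 3, or 2 in WT on vehicle). The lowest group was WT on PFOA, and the KO and KI groups overlapped one another.

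The genes varied together only in part. Of the 45 pairs, 34 had a Pearson r above 0 over the 17 libraries, from -0.38 to 0.73. Nlrp3 and Il1b had the highest, with Pearson r = 0.73 (permutation p = 0.00119, adjusted over the 45 pairs 0.0536) and Spearman rho = 0.75 (permutation p = 0.0007, adjusted 0.0315). The r was 0.61 without the 2 libraries farthest from the Nlrp3 median, 0.59 without the 3 KO PFOA libraries, 0.72 without libraries 122 and 137, 0.86 in the 12 females and 0.63 with the group means removed. It was 0.78 with the means of the second code removed, a value added after seeing the data. Neither the 5 males nor any single code reached the 6 libraries set for a value of r.

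The next pair was Casp1 and Gsdmd, with r = 0.60 (permutation p = 0.00928, adjusted 0.209) and rho = 0.60 (permutation p = 0.0117, adjusted 0.203). It was 0.70 without the 2 most distant libraries and 0.47 with the group means removed. All libraries enter each r with their depth and cell content, so a shared r describes these libraries only.

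**Figure D5:**
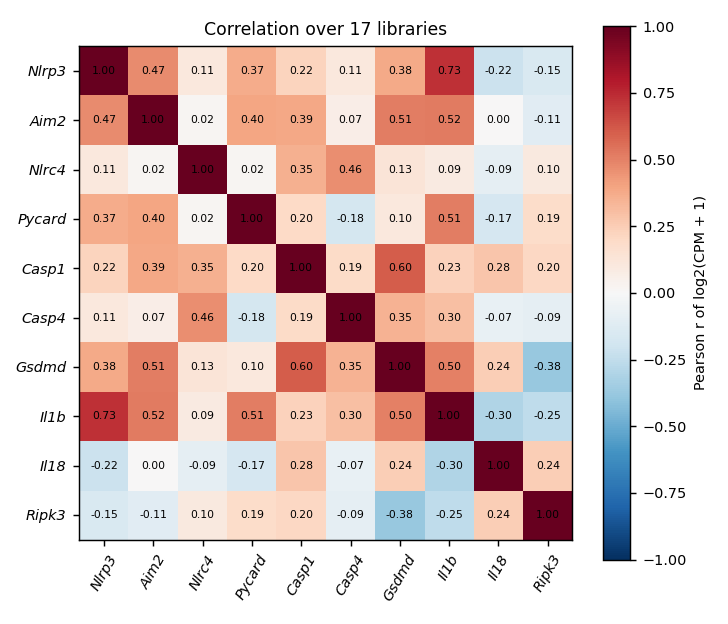
Pearson r of log2(CPM + 1) for each pair of the 10 genes over the 17 libraries, red above 0 and blue below 0. Nlrp3 with Il1b (0.73) is the highest pair, followed by Casp1 with Gsdmd (0.60), and Il18 and Ripk3 have values near or below 0 with most of the others.

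Likeness was searched among the 9227 genes that averaged 100 counts or more. The genes most like Il1b over the 17 libraries were Jak3 (r = 0.84), a kinase of cytokine receptors in leukocytes, Csf3r (0.83), the G-CSF receptor and 1 of the neutrophil markers, and Fes (0.83). Those most like Nlrp3 were Jak3 (0.79), Csf3r (0.77) and Stk38 (0.76), so 2 of 3 were common to both. Casp1 was most like Cd84 (0.86), Gimap3 (0.86) and Itga4 (0.86), and Gsdmd most like Dock8 (0.89), Ptpn6 (0.89) and Traf3 (0.88), of which Cd84, Itga4, Dock8 and Ptpn6 are known from leukocytes. Il18 differed, with Nrip1 (0.90), Ap2b1 (0.89) and Aldh1a2 (0.86). For Aim2 the highest r was 0.74 (Itgal, an integrin gene of leukocytes). For Pycard the highest r was 0.65 (Ccl25), for Nlrc4 0.74 (Hmcn2), for Casp4 0.78 (Pisd) and for Ripk3 0.82 (Kcnn3). These were picked as the highest of many and carry no test.

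Of 75 other genes of the pathway, 67 were tested. These genes too were chosen with earlier results of these data known, so their counts beside the shares of all genes describe and do not test. On PFOA, 0 were called in any genotype, and at an unadjusted p under 0.05 edgeR gave 3 higher and 0 lower in WT (3.12% and 4.23% of all genes), 9 and 2 in KO (3.74% and 6.06%), 5 and 1 in KI (1.47% and 1.12%), and 14 and 0 over the genotypes (3.8% and 4.47%). The 13 other sensors were 4 higher and 1 lower in KO by this count, and the 17 licensing genes and regulators were 4 higher and 1 lower in KI. Of the 11 NF-κB priming targets tested, 1 was higher in KO, and their median log2 fold change there was 0.028.

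In KO, the smallest p-values belonged to Ifi204, Il18rap and Naip2. Ifi204, an interferon-induced DNA sensor, had 3.85 ± 1.05 and 14.95 ± 9.30 CPM (log2 fold change 1.92, SE 0.48, edgeR adjusted p = 0.434). Il18rap, the accessory chain of the IL-18 receptor, had 9.02 ± 1.89 and 18.5 ± 3.11 CPM (1.03, SE 0.28, adjusted p = 0.458). Naip2, a NAIP partner of NLRC4, had 5.30 ± 0.410 and 9.23 ± 1.29 CPM (0.80, SE 0.22, adjusted p = 0.464). The other NAIP genes read 0.38 (Naip5, SE 0.33), -0.081 (Naip6, SE 0.29) and -2.32 (Naip1, SE 1.28). Nlrc4 itself was 3.96 ± 0.745 and 2.82 ± 0.451 CPM there (-0.49, SE 0.36), vehicle before PFOA in each case (SD, n = 3).

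In WT they were Gsdme, another gasdermin, at 4.97 ± 0.315 and 7.98 ± 0.565 CPM (0.68, SE 0.29, adjusted p = 0.621), Naip2 (0.54, SE 0.26, adjusted p = 0.676) and Nlrp6, which had 0 counts in both vehicle libraries and 7, 2 and 3 counts on PFOA and is too low for a fold. In KI they were Gm12250, an interferon-induced GTPase gene, at 4.22 ± 3.94 and 14.3 ± 8.89 CPM (1.75, SE 0.56, adjusted p = 1.0), Gbp5, a GTPase that promotes NLRP3 assembly (0.76, SE 0.28), and Brcc3, which deubiquitinates NLRP3 (0.40, SE 0.15). Over the genotypes they were Gm12250 (1.31, SE 0.35, adjusted p = 0.394), Birc3 (0.31, SE 0.091) and Il18rap (0.59, SE 0.18).

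Between genotypes, 2 of the 67 pathway genes were called in KO against WT and 2 of 67 in KI against WT, where 2.36% and 1.37% of all genes were. Gm12250 was higher in KO than in WT by 1.82 (SE 0.46, edgeR adjusted p = 0.0426) and in KI by 1.89 (SE 0.45, adjusted p = 0.0480). Zbp1, a sensor of Z-form nucleic acids that engages RIPK3, was higher in KO by 1.68 (SE 0.38, adjusted p = 0.0203) and in KI by 1.28 (SE 0.38, adjusted p = 0.142). Both KO and KI are set against the same WT libraries here. Gm12250 stayed called in both without library 107, without library 122, and without libraries 122 and 137, while Zbp1 in KI was not called without library 107 (1.08, adjusted p = 0.302). Markers of several leukocyte types moved with them. In KO against WT, 3 of 4 B cell, 3 of 9 NK and T cell, 2 of 8 monocyte, 1 of 7 neutrophil and 1 of 6 dendritic cell markers were called higher, and in KI against WT 3 of 4 B cell, 3 of 9 NK and T cell and 1 of 8 monocyte markers were, with 0 called lower in any of the 12 lists. Alveolar macrophage markers mostly went the other way in KI against WT, where 1 of 10 was above 0 (median log2 fold change -0.23). In KO against WT 6 of 10 were above 0 (median 0.19). The part of leukocytes in the Gm12250 and Zbp1 values was not tested. Zbp1 averaged 2.04 ± 1.75 and 2.66 ± 1.08 CPM in WT, 5.86 ± 1.23 and 9.11 ± 4.54 in KO, and 4.57 ± 1.45 and 6.78 ± 4.06 in KI, vehicle before PFOA, while the log2 fold change of Ripk3, its partner, was 0.27 (SE 0.28) in KO against WT and -0.066 (SE 0.28) in KI against WT.

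In the differences of PFOA effects, 0 of the 67 pathway genes were called, and at an unadjusted p under 0.05 edgeR gave 7 in KO minus WT (7.46% of all genes) and 0 in KI minus WT (4.58%). In KO minus WT the 3 smallest p-values belonged to Nlrp6, Il1a and Ifi204. Nlrp6 had 17, 2 and 0 counts in KO on vehicle and 0, 0 and 2 on PFOA, too low for a fold. Il1a, the sister cytokine of Il1b, averaged 6.97 ± 2.22 and 3.06 ± 1.29 CPM in KO and 1.85 ± 0.769 and 2.996 ± 1.19 in WT, vehicle before PFOA (difference -1.87, SE 0.62, edgeR adjusted p = 0.669). The difference for Ifi204 was 1.97 (SE 0.74, adjusted p = 0.669). In KI minus WT they belonged to Myd88, the adaptor of Toll-like and IL-1 receptors (0.47, SE 0.25), Brcc3 (0.37, SE 0.23) and Card9, an adaptor of C-type lectin receptors (0.54, SE 0.33), each with an edgeR adjusted p of 0.999.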

How the data were processed

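Lung RNA of 17 mice was sequenced, 1 library each, from a stranded total RNA kit. The authors trimmed 3′ bases under a phred score of 20, used STAR 2.6 within Partek Flow for alignment to mm10, and quantified genes with an expectation-maximization model. The deposited values are estimated counts per gene, not normalized, and were not whole in 29.9% of cells. The annotation release and the use of strand are not given in the sources used here. Library totals (4116116 to 9237385) set the counting error quoted, which covers counting only.

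Estimated counts were rounded, and 4299 genes under a total of 20 counts were left out. edgeR 4.0.16 (R 4.3.3) fitted 1 coefficient per group over all libraries with TMM factors, and an additive model for effects over genotypes. P-values were adjusted over 26946 genes. Differences between groups for a single gene also had 2-sided exact permutation tests on log2(CPM + 1). Correlations used log2(CPM + 1) and 100000 permutations. Exon lengths came from GENCODE M21, where 96.7% of gene names were found once, and promoter windows from RefSeq. Scripts were tested on simulated data.

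The 10 genes and all lists were chosen with earlier results of these data known. Named pathway genes were those past the call or else the 3 smallest p-values per comparison. Alternatives were DESeq2 1.42.0 with and without its default filters, RLE factors, no filter, sex or the second code as a covariate, an adjusted p under 0.05, libraries 122 and 137 left out, and each library left out in turn. Nothing says that the libraries of a group came from separate litters or cages.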

Additional observations from a re-analysis of the deposited data

How the results depend on the processing

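Of 1536 recomputed log2 fold changes of the genes above under 24 alternatives, 1463 kept their direction and their side of the threshold, 68 changed sign and 5 came to pass the threshold, all 5 for Il1b or Ripk3 in fits without WT vehicle library 107 or 122. Il1b and Nlrp3 in KO kept their sign in all 24 (1.19 to 1.63 and 0.63 to 1.15), as did Ripk3 in KI (0.95 to 1.25), and none of these passed the threshold. The low counts, 2 WT vehicle libraries and codes that follow exposure in KO, and in part in WT, limit the data. No paired analysis was possible because animal numbers are unique to each group.

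Genes called over the whole table numbered, with DESeq2 and with its default filters, 24 and 56 in WT, 68 and 51 in KO, 1 and 1 in KI, 26 and 28 over genotypes, 3 and 3 for KO minus WT and 1 and 1 for KI minus WT, where edgeR called 0. With the second code they were 1 in WT, 2 in KO and 1 for KO minus WT, and without libraries 122 and 137 there was 1 in KO. At an adjusted p under 0.05, 258 were called in KO against WT (637 at 0.2) and 179 in KI against WT (368 at 0.2). With 1 library left out at a time the counts ran from 0 to 1659 in WT, 0 to 9 in KO, 0 to 5 in KI, 0 to 35 over genotypes, 0 to 178 for KO minus WT and 0 to 352 for KI minus WT. The 10 genes gave 0 to 2 calls in WT, 0 to 1 in KO against WT (also 1 without libraries 122 and 137) and 0 to 1 for KO minus WT.

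With 1 library left out, log2 fold changes that changed sign ranged in WT from -0.61 to 1.20 (Nlrp3), -0.14 to 1.12 (Aim2), -0.11 to 0.52 (Pycard), -0.18 to 0.10 (Gsdmd), -1.85 to 1.06 (Il1b) and -0.45 to 1.14 (Ripk3). In KO they ranged from -0.091 to 0.21 (Pycard), -0.092 to 0.34 (Casp4) and -0.076 to 0.56 (Il18). In KI they ranged from -0.015 to 0.61 (Nlrp3), -0.21 to 0.24 (Nlrc4), -0.031 to 0.43 (Casp1), -0.35 to 0.12 (Casp4), -0.16 to 0.016 (Gsdmd) and -0.21 to 0.27 (Il18). In KO against WT they ranged from -0.18 to 0.17 (Aim2) and -0.054 to 0.24 (Il18), and in KI against WT from -0.21 to 0.36 (Nlrp3), -0.38 to 0.032 (Aim2), -0.12 to 0.066 (Pycard), -0.20 to 1.0 (Il1b) and -0.21 to 0.21 (Ripk3). Differences ranged from -0.28 to 1.55 (Nlrp3, KO minus WT) and -0.069 to 1.52 (Ripk3, KI minus WT).

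Without libraries 122 and 137 the sign changed in WT for Gsdmd (0.12), Il1b (1.07) and Ripk3 (-0.44), in KO for Il18 (-0.084), in KO against WT for Aim2 (0.22), in KI against WT for Nlrp3 (0.38), Aim2 (0.023) and Pycard (0.080), and for Nlrp3 in KO minus WT (-0.073). With the second code it changed for Aim2 in WT (-0.057), Casp4 in KO (-0.11), Nlrc4 (-0.13) and Casp4 (0.11) in KI, Nlrc4 over genotypes (0.018), Il18 in KO against WT (-0.032) and Nlrp3 in KI against WT (0.23), the last also with sex (0.19). Beyond the fewer libraries in a fit, the cause was not tested.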
